A study of Mus musculus with 8 samples.

Results

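Hddc3, Zfp605, Glt1d1, Tifa, Fah, Dctd, Mtmr7 and Tmem116 are 8 genes selected because their signal separated mice lacking sphingomyelin synthase 2 (SMS2, gene Sgms2) from wild-type (WT) mice, whether or not the animals had been given dextran sulfate sodium (DSS), although for Tmem116 this held clearly only with DSS. They were chosen from these arrays for that genotype difference, so the knockout (KO) against WT values below are a description and carry no test. All 8 were among the 13003 genes tested, of 19505 genes with a row on the array and 1 platform symbol, and each had 1 row. Colon epithelial cells came from C57BL/6J mice in 4 groups of 2 arrays: SMS2 KO given 3.5% DSS in drinking water for 2 days, WT given the same DSS, SMS2 KO untreated and WT untreated. The labels call the 2 arrays of a group biological replicates. The labels do not say how many mice an array held, of which sex they were or which part of Sgms2 was deleted.

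Sphingomyelin synthases transfer a phosphocholine head group onto ceramide, and SMS2 does so mainly at the plasma membrane. DSS injures the colon lining and is widely used to provoke colitis in mice. The 8 genes belong to no common pathway. Hddc3 encodes a phosphohydrolase of the HD domain family, the animal counterpart of bacterial enzymes that degrade the alarmone ppGpp. Fah encodes fumarylacetoacetate hydrolase, the last enzyme of tyrosine breakdown. Dctd encodes dCMP deaminase, which supplies dUMP for thymidylate synthesis. Tifa encodes an adaptor that oligomerises after ALPK1 senses bacterial sugars and then activates TRAF6 and NF-kB. Mtmr7 encodes a myotubularin-related phosphatase that removes phosphate from phosphoinositides and inositol phosphates. Zfp605 encodes a zinc finger protein, Glt1d1 a protein with a glycosyltransferase domain and Tmem116 a membrane protein.

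Promoter windows of 300 bases around an annotated start are shown for 4 of the genes. Hddc3 and Fah are shown as genes higher in KO that lie near each other on chromosome 7. Tifa and Tmem116 are shown because their genotype difference changed most between the arrays with DSS and the untreated arrays. The windows are from RefSeq on GRCm38.p6, which held 10 windows for 6 of the 8 genes. They are chr7:80342887-80343186 on the plus strand for Hddc3, chr7:84605893-84606192 on the minus strand for Fah, chr3:127790407-127790706 on the plus strand for Tifa and chr5:121452459-121452758 on the plus strand for Tmem116. Each is written 5′ to 3′ on the gene's strand, with matches to 4 motifs in capitals, searched on both strands.
Hddc3: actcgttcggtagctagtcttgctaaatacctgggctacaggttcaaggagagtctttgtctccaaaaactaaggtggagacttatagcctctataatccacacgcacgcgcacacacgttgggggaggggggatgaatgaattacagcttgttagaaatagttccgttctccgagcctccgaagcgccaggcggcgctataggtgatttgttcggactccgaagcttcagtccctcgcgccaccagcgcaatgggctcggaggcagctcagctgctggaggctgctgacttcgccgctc
Fah: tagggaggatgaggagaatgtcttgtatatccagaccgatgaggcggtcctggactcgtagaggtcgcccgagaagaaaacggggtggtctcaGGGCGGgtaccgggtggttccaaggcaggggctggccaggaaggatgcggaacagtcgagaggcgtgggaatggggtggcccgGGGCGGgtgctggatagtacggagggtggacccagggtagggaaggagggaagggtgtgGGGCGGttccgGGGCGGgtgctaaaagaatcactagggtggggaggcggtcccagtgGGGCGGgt
Tifa: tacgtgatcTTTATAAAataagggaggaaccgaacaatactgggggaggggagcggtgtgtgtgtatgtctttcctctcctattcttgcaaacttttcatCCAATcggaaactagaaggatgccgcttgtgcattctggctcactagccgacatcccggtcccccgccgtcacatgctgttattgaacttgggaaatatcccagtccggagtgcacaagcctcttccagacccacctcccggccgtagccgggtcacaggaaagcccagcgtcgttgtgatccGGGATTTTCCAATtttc
Tmem116: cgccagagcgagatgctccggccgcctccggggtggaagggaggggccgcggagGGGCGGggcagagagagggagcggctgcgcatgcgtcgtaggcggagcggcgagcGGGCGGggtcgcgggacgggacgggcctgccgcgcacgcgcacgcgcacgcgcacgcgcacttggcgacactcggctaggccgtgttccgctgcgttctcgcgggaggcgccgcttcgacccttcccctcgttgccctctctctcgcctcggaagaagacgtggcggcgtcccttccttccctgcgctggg
The first motif searched was the GC-rich box GGGCGG, which 35.7% of all 32851 windows held. The second, found in 13.6% of them, was the core promoter element with the letters TATAAA. The third was the element CCAAT, present in 37.4% of windows. The last was an NF-kB-like motif, present in 1.63%. The Hddc3 window held no match to these letters. The Fah window held 5 matches to the first motif and the Tmem116 window held 2. The Tifa window held 2 matches to the second motif that overlap on opposite strands, 2 matches to the third and 1 NF-kB-like match that overlaps one of these. Windows not shown held no match for Zfp605, for the other Tifa start and for the second Tmem116 start, while 2 of the 3 Dctd windows, which overlap each other, held 1 match each to the first motif and the third. CpG counts were 20 in the Hddc3 window, 19 in Fah, 16 in this Tifa window and 48 in this Tmem116 window, against a median of 7 over all windows. These matches describe letters only.

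The targeted gene was low in every KO array. Sgms2 (TC0300002959.mm.2) had log2 signals of 7.35 and 6.47 in KO with DSS against 11.27 and 10.90 in WT with DSS, and of 7.30 and 7.33 in untreated KO against 10.79 and 10.76 in untreated WT. Here and below a pair of values is given in replicate order. Markers of epithelium averaged between 16.6 and 16.8 in all arrays. Other tissue differed between arrays. A list of 12 smooth muscle markers averaged 13.05 and 11.22 in KO with DSS against 11.33 and 10.83 in WT with DSS, and 12.13 and 12.32 in untreated KO against 9.91 and 10.80 in untreated WT. Of a list of 12 fibroblast and matrix markers, 11 had a row and averaged 11.92 and 10.85 in KO with DSS against 10.93 and 11.49 in WT with DSS, and 9.87 and 9.59 in untreated KO against 8.03 and 8.44 in untreated WT. Both lists were thus higher in untreated KO than in untreated WT. Their part in the genotype values below is given only through a fit with each list's mean as a covariate. Endothelium markers (7.31 and 7.08 against 6.29 and 6.19) and macrophage markers (6.30 and 6.01 against 5.50 and 5.52) were also higher in untreated KO. Lists of B and plasma cells and of neurons and glia were higher by less, and those of T cells overlapped. No fit used these lists as covariates. Pancreas markers averaged 12.34 in replicate 1 of WT with DSS and 7.65 in replicate 1 of KO with DSS, against 5.72 to 6.17 in the other arrays. In bulk RNA of this kind, fewer cells of a type and less RNA per cell cannot be told apart.

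In the KO, 3 of the 8 genes were higher (Hddc3, Zfp605 and Fah) and 5 were lower (Glt1d1, Tifa, Dctd, Mtmr7 and Tmem116). For each of the 8, all 4 KO arrays lay on one side of all 4 WT arrays, which was so for 4.78% of the 13003 tested genes. In 7 of the 8, all but Tmem116, the difference was at least 1 log2 unit in both treatments, as in 0.523% of tested genes. All 8 passed an adjusted p under 0.05 in limma for the difference averaged over treatment, as did 0.677% of tested genes, 0.423% as higher and 0.254% as lower in the KO. With DSS 6 of the 8 passed and without DSS 3, as did 0.354% and 0.392% of tested genes. Hddc3, Zfp605 and Glt1d1 passed in both treatments, together with Sgms2 and Serpina1a, which made 5 genes or 0.0385%. Tifa, Fah and Tmem116 passed with DSS alone, and Dctd and Mtmr7 in neither treatment taken alone. Since these calls chose the genes, nothing is read from the counts. The count for both treatments was 38 without replicate 2 of KO with DSS and 3 without either untreated WT array or replicate 1 of WT with DSS.

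**Figure D1:**
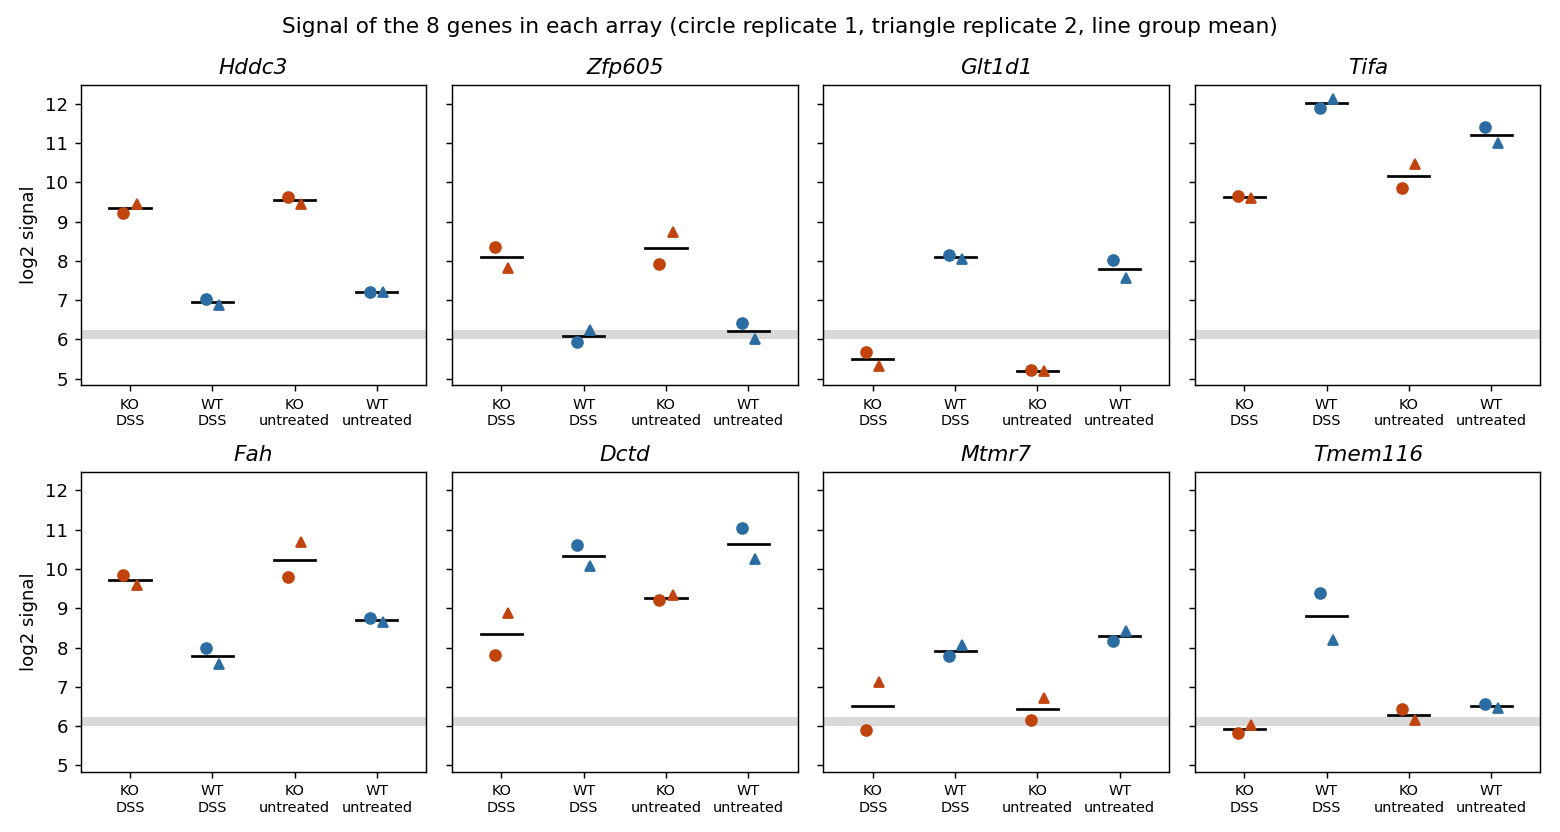
Log2 signal (y axis) of each of the 8 genes in the 8 arrays, by group (x axis), with KO in orange, WT in blue, circles for replicate 1, triangles for replicate 2 and a line at the group mean. The grey band spans the 8 arrays' backgrounds, 6.00 to 6.24, and in every panel the 4 KO arrays lie on one side of the 4 WT arrays, by a narrow margin for Tmem116 without DSS.

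Hddc3 showed the most even difference of the 3 genes higher in the KO. Its signals (TC0700001152.mm.2) were 9.23 and 9.45 in KO with DSS against 7.04 and 6.87 in WT with DSS, and 9.62 and 9.45 in untreated KO against 7.20 and 7.21 in untreated WT. The KO arrays spanned less than the gap to the WT arrays in both treatments. The log2 difference was 2.38 ± 0.22 (SE) with DSS and 2.33 ± 0.22 without, or 5.21-fold and 5.04-fold. The lowest and highest values under alternative settings were 2.27 and 2.57 with DSS and 2.25 and 2.57 without.

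Zfp605 (TC0500001131.mm.2) was close to background in WT and clearly above it in the KO. It had 8.34 and 7.83 in KO with DSS against 5.94 and 6.24 in WT with DSS, and 7.91 and 8.73 in untreated KO against 6.41 and 6.02 in untreated WT. Background is here set per array, at the level that 75% of its 5222 negative-control rows stay under, between 6.00 and 6.24, and 1 of the 2 WT arrays lay under it in each treatment. The differences were 1.99 ± 0.31 with DSS and 2.11 ± 0.31 without. The untreated KO replicates were 0.82 log2 units apart, against a median gap of 0.20 between replicates of that group over all tested genes. Without the first or the second of them the untreated difference was 2.52 or 1.70.

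Fah (TC0700003657.mm.2) completed the higher genes. Signals were 9.85 and 9.59 in KO with DSS against 7.98 and 7.58 in WT with DSS, and 9.78 and 10.69 in untreated KO against 8.75 and 8.65 in untreated WT. The KO level was thus 3.84-fold the WT level with DSS (1.94 ± 0.30 on the log2 scale) and 2.91-fold without (1.54 ± 0.30). The second untreated KO array set the upper end, and without it the untreated difference was 1.08.

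Of the 5 genes lower in the KO, Glt1d1 (TC0500001487.mm.2) was the one whose KO signal lay under background in all 4 arrays. It had 5.69 and 5.33 in KO with DSS against 8.16 and 8.04 in WT with DSS, and 5.22 and 5.19 in untreated KO against 8.02 and 7.56 in untreated WT. A level under background gives only a bound, so the KO was at least 3.91-fold lower with DSS and at least 3.09-fold lower without. The measured differences were -2.59 ± 0.25 and -2.58 ± 0.25, with values between -2.81 and -2.36 under alternative settings.

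Tifa (TC0300001292.mm.2) was well above background in every array. It had 9.64 and 9.60 in KO with DSS against 11.90 and 12.13 in WT with DSS, and 9.85 and 10.46 in untreated KO against 11.40 and 11.00 in untreated WT. The KO arrays were lower in both treatments, with the wider gap under DSS. The genotypes differed by -2.39 ± 0.27 with DSS, or 5.24-fold lower in the KO, and by -1.04 ± 0.27 without DSS, or 2.06-fold lower. The 4 group means ran, from low to high, from KO with DSS (9.62 ± 0.03, SD, n = 2 each) through untreated KO (10.16 ± 0.43) and untreated WT (11.20 ± 0.28) to WT with DSS (12.01 ± 0.17). No 2 neighbouring groups in that order overlapped.

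Dctd (TC0800000564.mm.2) and Mtmr7 (TC0800002108.mm.2) were lower in the KO with a wider spread. Dctd had 7.82 and 8.89 in KO with DSS against 10.61 and 10.07 in WT with DSS, and 9.20 and 9.35 in untreated KO against 11.03 and 10.24 in untreated WT. Its differences were -1.98 ± 0.37 with DSS and -1.36 ± 0.37 without. The untreated difference of Dctd was 0.23 ± 0.41 with the fibroblast list as a covariate and -0.37 ± 0.46 with the smooth muscle list. The untreated KO and WT arrays also differed in those markers. Mtmr7 had 5.90 and 7.12 in KO with DSS against 7.78 and 8.06 in WT with DSS, and 6.16 and 6.71 in untreated KO against 8.18 and 8.42 in untreated WT. The differences of Mtmr7 were -1.41 ± 0.36 with DSS and -1.87 ± 0.36 without. Replicate 1 of KO with DSS, which also held pancreas transcripts and the highest smooth muscle mean, was the lowest array for both genes. Without it the differences with DSS were -1.45 for Dctd and -0.79 for Mtmr7, and without replicate 2 of that group they were -2.52 and -2.02. The untreated difference of Mtmr7 was -0.80 ± 0.59 with the fibroblast covariate and -0.997 ± 0.49 with the smooth muscle covariate. With DSS the smooth muscle covariate gave -1.42 ± 0.35 for Dctd and -0.92 ± 0.37 for Mtmr7. The fibroblast covariate gave -1.80 ± 0.22 and -1.29 ± 0.31 there. Without both arrays with pancreas transcripts the difference of Dctd with DSS was -1.18.

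Tmem116 (TC0500001361.mm.2) did not follow the description of a gene that differs in both treatments. It had 5.82 and 6.04 in KO with DSS, both under background, against 9.38 and 8.20 in WT with DSS, a KO level at least 6.33-fold lower. In untreated mice it had 6.43 and 6.16 in KO against 6.56 and 6.47 in WT, a difference of -0.22 ± 0.34 with a 95% interval from -0.96 to 0.51. WT with DSS was thus the one group that stood apart, and the means of the other 3 groups lay between 5.93 and 6.51. Without replicate 1 of WT with DSS the difference with DSS was -2.28, and without replicate 2 it was -3.45. Replicate 1 also held pancreas transcripts, and without both arrays that held them the difference was -2.17.

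**Figure D2:**
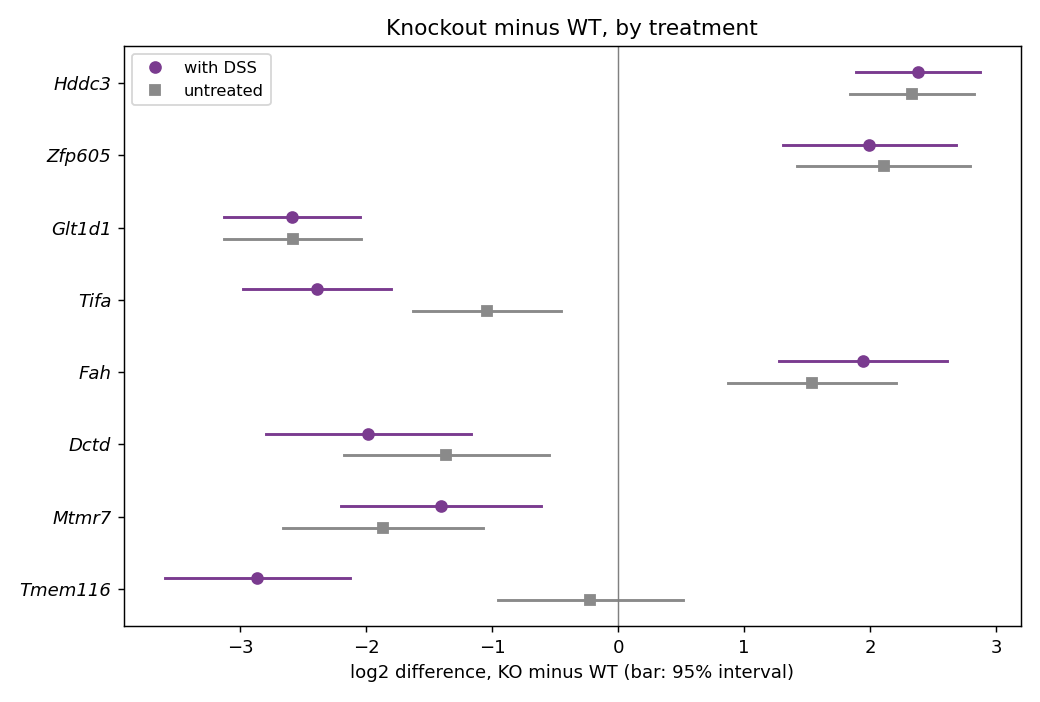
Log2 difference, KO minus WT (x axis), of each of the 8 genes (y axis) with DSS (purple circles) and untreated (grey squares), with bars for the 95% interval from limma. Hddc3, Zfp605 and Fah lie right of 0 and the others left, with untreated Tmem116 nearest to 0 (interval from -0.96 to 0.51). The genes were chosen for these differences, so the bars are a description with no test. The KO signals of Glt1d1, and of Tmem116 with DSS, were under background.

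Among genes that are no members, Serpina1a, an alpha-1-antitrypsin gene with close paralogs that share much of its sequence, passed in both treatments. It had 7.15 and 7.21 in KO with DSS against 5.64 and 5.88 in WT with DSS, and 7.36 and 7.26 in untreated KO against 5.97 and 5.92 in untreated WT. All WT arrays were under background, and the KO was at least 2.08-fold higher with DSS (adjusted p = 0.0226 in limma) and at least 2.26-fold higher without (adjusted p = 0.0292). Other non-members passed only with DSS or only without it. Of these, Gm3336, 4833420G17Rik and the metallothionein Mt2 had the largest same-direction differences, judged by the treatment with the smaller value. Gm3336 differed by -2.54 with DSS (adjusted p = 0.0255) and -1.93 without (adjusted p = 0.0961). The gene 4833420G17Rik differed by -3.03 with DSS (adjusted p = 0.0401) and -1.91 without (adjusted p = 0.223). Mt2 differed by 1.53 with DSS (adjusted p = 0.210) and 2.67 without (adjusted p = 0.0243).

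Tmem116 had its high signals in one group, WT with DSS, and that group also made it a member. Its DSS change of 2.28 ± 0.34 in WT, or 4.85-fold, is therefore a description with no test, and so is the average over genotype of 0.96 ± 0.24, to which the KO adds a value below 0. In the KO the change was -0.37 ± 0.34, with both DSS arrays under background. Tmem116 was the only member past the threshold in WT and on average, where 4.04% and 5.52% of all tested genes passed. Its choice favoured that call, so nothing is read from it. No member passed in the KO by limma, where 0.931% of tested genes did. The average of Tmem116 stopped passing when any array other than replicate 2 of WT with DSS was left out. Its lowest value was 0.66, without replicate 1 of that group. Every DSS comparison also set arrays with Y-linked transcripts, whose list averaged 8.99 to 9.95, against untreated arrays at 3.75 to 3.90, and DSS and the presence of Y-linked transcripts cannot be told apart here.

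None of the other 7 genes passed for DSS, in a genotype or on average. The comparison averaged over genotype was not used to choose them, while that within a genotype shares arrays with the choice. Fah stood at -0.72 ± 0.22 averaged over genotype (adjusted p = 0.084), with -0.52 ± 0.30 in the KO and -0.92 ± 0.30 in WT. Dctd stood at -0.61 ± 0.26 on the same average (adjusted p = 0.250), with -0.92 ± 0.37 in the KO and -0.30 ± 0.37 in WT. Without 1 array each passed, Fah without replicate 1 of untreated KO (-0.95, adjusted p = 0.0291) and Dctd without replicate 2 of KO with DSS (-0.88, adjusted p = 0.0461). Glt1d1 stood at 0.31 ± 0.25 in WT, and in the KO all its arrays were under background, so no change can be read there. Hddc3 differed by -0.20 in the KO and -0.25 in WT, and Zfp605 by -0.23 and -0.12. The 95% intervals of the averaged DSS change ran from -0.57 to 0.12 for Hddc3 and from -0.66 to 0.31 for Zfp605. Tifa stood at -0.53 ± 0.27 in the KO (adjusted p = 0.597) and at 0.81 ± 0.27 in WT (adjusted p = 0.140). Mtmr7 stood at 0.08 ± 0.36 in the KO and -0.38 ± 0.36 in WT.

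The difference between the DSS changes (KO change minus WT change) was 0.05 ± 0.32 for Hddc3 and -0.11 ± 0.44 for Zfp605. It cannot be read for Glt1d1, whose KO arrays were all under background. It was 0.40 ± 0.43 for Fah, 0.46 ± 0.51 for Mtmr7 and -0.62 ± 0.52 for Dctd. For Tifa it was -1.35 ± 0.38 and for Tmem116 -2.64 ± 0.47. A small value follows in part from the choice of genes that differ in both treatments, so these are given without a test. The arrays with DSS held Y-linked transcripts and the untreated ones did not, so here too DSS and their presence cannot be told apart. Tifa and Tmem116 were also the 2 members whose DSS arrays all lay above the untreated ones in WT and all below them in the KO, although for Tifa neither change passed and for Tmem116 the KO signals with DSS were under background. Of tested genes 4.27% had arrays that separated in opposite directions in this way. Tifa and Tmem116 passed between genotypes with DSS and not without, so their choice may have favoured this pattern. Nothing is read from the share.

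**Figure D3:**
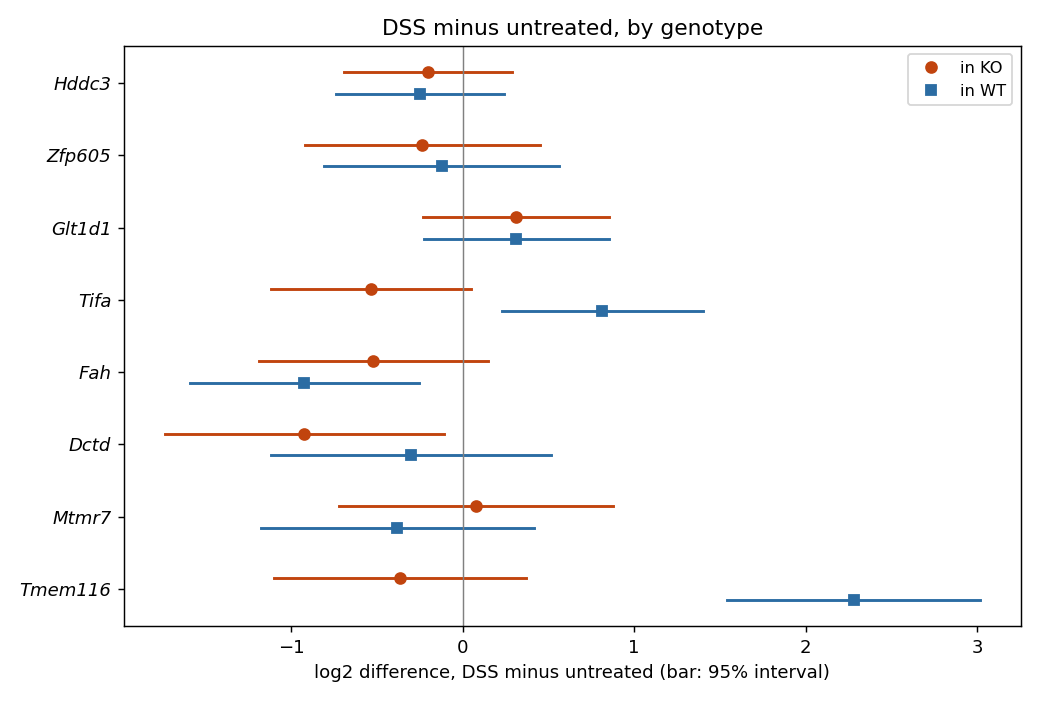
Log2 difference, DSS minus untreated (x axis), of each of the 8 genes (y axis) in KO (orange circles) and in WT (blue squares), with bars for the 95% interval from limma. Tmem116 in WT, at 2.28, lies farthest from 0, and the KO value of Glt1d1 is a difference between signals under background.

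The other genes of the pathways around the 8 genes are given as counts. Over all tested genes an unadjusted p under 0.05 was reached by 10.2% between genotypes with DSS, 6.32% without and 11.0% averaged over treatment, beside the 0.354%, 0.392% and 0.677% that passed. A list around tyrosine breakdown had 11 other tested genes. Of them 1 passed between genotypes with DSS and none without DSS or averaged, where 2 and 3 had an unadjusted p under 0.05. That gene was Tat, tyrosine aminotransferase, the first enzyme of the route, at 9.70 and 9.51 in KO with DSS against 11.13 and 11.00 in WT with DSS. Its difference of -1.46 ± 0.23 (adjusted p = 0.0227) ran opposite to that of Fah, and without DSS it was 0.05 ± 0.23 (adjusted p = 0.999). Hpd, the dioxygenase between them, differed by -0.71 ± 0.18 averaged over treatment (adjusted p = 0.120), and Gstz1, the isomerase just before Fah, by 0.12 ± 0.18 (adjusted p = 0.876). The list was broader than the route and also held Fahd1, Fahd2a, Pcbd1, Qdpr, Got1, Got2, Aldh4a1 and Mif, while Hgd was not among the tested genes. The median over the 11 listed genes was 0.12 averaged over treatment, against -0.02 over all tested genes.

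None of the 28 other tested genes of pyrimidine deoxynucleotide metabolism passed between genotypes in limma, averaged over treatment, and 3 had an unadjusted p under 0.05. The median was 0.00053, with thymidylate synthase Tyms at 0.06, the deoxycytidine kinase Dck at 0.01 and the dUTPase Dut at -0.05. With DSS, averaged over genotype, 1 gene fell in that list, the pyrimidine-degrading Dpyd (-0.85 ± 0.21, adjusted p = 0.0345). Of 21 other tested genes of ALPK1, TRAF and NF-kB signalling none passed between genotypes, averaged over treatment, and 6 had an unadjusted p under 0.05, against 11.0% of all tested genes. The 6 had lower values in the KO. The range over the list was -0.92 to 0.06 with a median of -0.13, and Traf6, to which TIFA binds, stood at -0.26 ± 0.16 (adjusted p = 0.618).

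Between genotypes, averaged over treatment, none of 23 other genes of the myotubularin family and its phosphoinositide partners passed, with 3 at an unadjusted p under 0.05. Mtmr9, an inactive partner of Mtmr7, stood at 0.04 ± 0.18 and Mtmr6 at -0.16 ± 0.16. None of 15 HD domain and NADP enzymes passed in the same comparison, with 2 at an unadjusted p under 0.05, and the NAD kinases Nadk and Nadk2 stood at -0.28 and -0.13. With DSS the folate enzyme Aldh1l1 rose by 0.76 ± 0.19 (adjusted p = 0.0379) in that list, averaged over genotype. The malic enzyme Me3 also passed (adjusted p = 0.0180), but all 4 of its DSS arrays and 2 of its untreated arrays were under background, which allows only a bound of at least 1.05-fold lower with DSS. A list around the co-repressor that KRAB zinc finger proteins recruit had 12 tested genes. It also held genes of other silencing complexes, such as Atrx, Daxx and Tasor. None of the 12 passed between genotypes averaged over treatment, with 1 at an unadjusted p under 0.05 and Trim28 at 0.09 ± 0.19. Among 281 other tested genes with a symbol of Zfp and a number, 1 passed in that comparison, or 0.356%. It was Zfp951 (adjusted p = 0.0173), under background in all KO arrays and at least 1.54-fold lower there. The remaining enzymes that make sphingomyelin or a related lipid did not pass on the same average: Sgms1 stood at 0.35 ± 0.17 (adjusted p = 0.484) and Samd8 at -0.49 ± 0.18 (adjusted p = 0.311).

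Where the genes lie was not used to choose them. In the gene order of GRCm38.p6 they sit on 4 chromosomes. Hddc3 and Fah are on chromosome 7 with 27 tested genes between them, and Mtmr7 and Dctd on chromosome 8, also with 27 between them. Zfp605, Tmem116 and Glt1d1 follow each other along chromosome 5, with 112 and 68 tested genes between. Tifa lies on chromosome 3, with 13 tested genes between it and Sgms2. No source used here names the build of the array's rows, so coordinates are printed only for the promoter windows, which are on GRCm38.p6.

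Among the 20 tested genes on either side of each member, 293 in all without members and Sgms2, 2 passed between genotypes averaged over treatment, or 0.683% against 0.677% of all tested genes. None passed with DSS or without DSS alone, where 40 and 29 had an unadjusted p under 0.05 in limma. These are 13.7% and 9.90% of the neighbours, against 10.2% and 6.32% of all tested genes. The median absolute difference was 0.17 log2 units in the neighbours and 0.16 over all tested genes. The passing genes were Asah1 and Homer2. Asah1, the acid ceramidase that cleaves ceramide to sphingosine, lies 3 places from Mtmr7. It had 13.56 and 14.19 in KO with DSS against 15.03 and 15.04 in WT with DSS, and 13.50 and 13.50 in untreated KO against 14.60 and 15.06 in untreated WT. Its averaged difference was -1.25 ± 0.19 (adjusted p = 0.0157), with all KO arrays below all WT arrays. Homer2, a scaffold protein gene, lies between Hddc3 and Fah, 15 places from the one and 13 from the other. It differed by 0.97 ± 0.18 (adjusted p = 0.0388). Its KO and WT arrays did not overlap within a treatment, but those of KO with DSS overlapped those of untreated WT. The count of passing neighbours rests on single arrays: it was 12 without replicate 2 of KO with DSS and 0 without replicate 2 of untreated KO or of untreated WT.

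**Figure D4:**
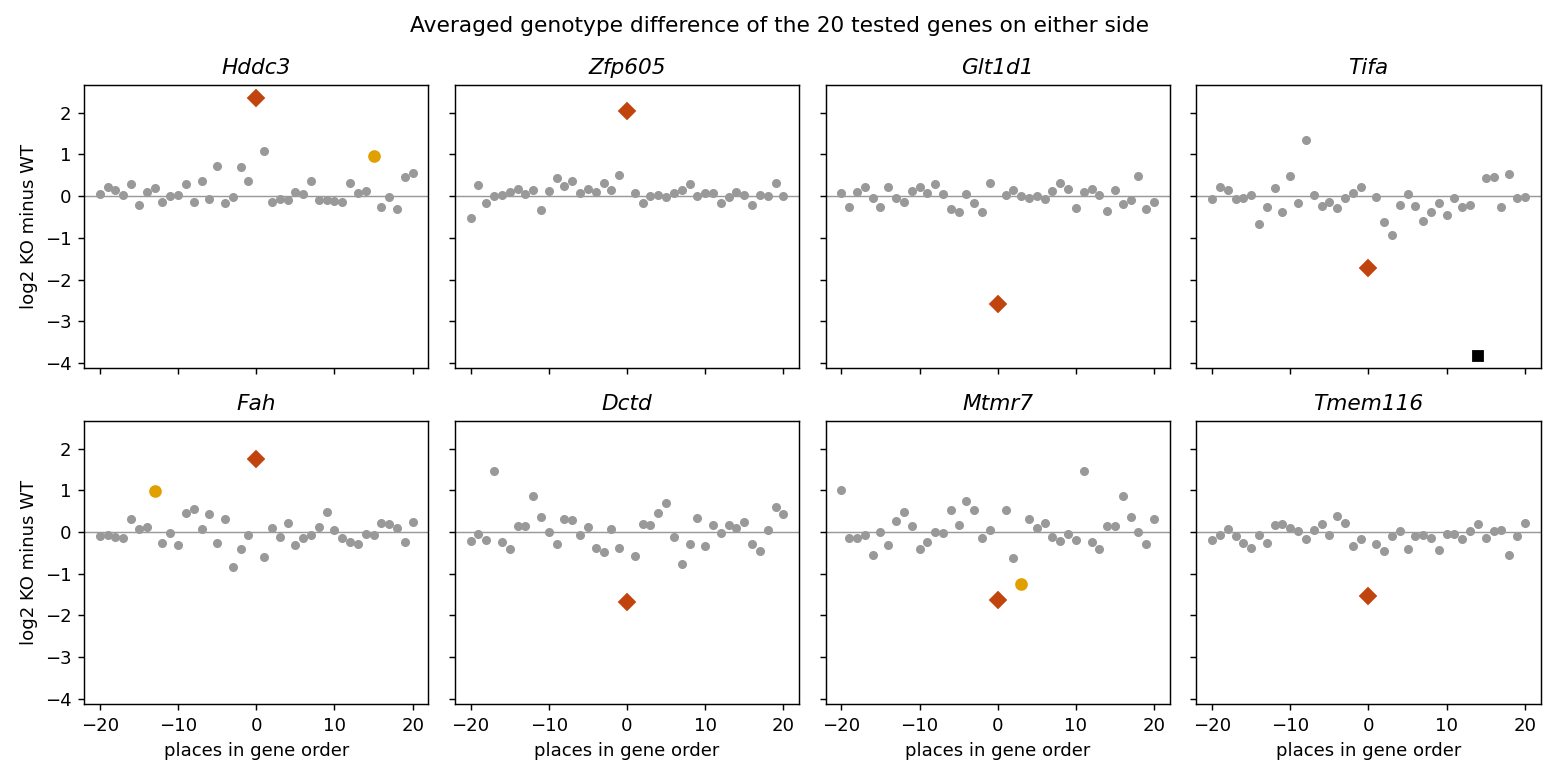
Log2 difference, KO minus WT averaged over treatment (y axis), of each member (orange diamond), of the 20 tested genes on either side in gene order (x axis, places from the member; grey, not passing; yellow, passing) and of Sgms2 (black square). Each member, chosen for its difference, stands apart from nearly all its neighbours, and Asah1 by Mtmr7 and Homer2 by Hddc3 and Fah are the ones that passed.

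By chromosome, 30 of 3199 other tested genes, or 0.938%, passed on the 4 chromosomes with members, averaged over treatment, and 49 of 9794, or 0.50%, on the rest. Chromosome 12 at 1.39%, chromosome 19 at 1.12% and chromosome 9 at 1.10% held no member and had higher shares than any of chromosomes 3, 5, 7 and 8, which ranged from 0.824% to 1.08%. These are counts with no test.

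The genes most like each member were sought by Pearson correlation over the 8 arrays, as a description. All points share the genotype split that chose the members. Serpina1a was the most like Hddc3 (r = 0.992) and Zfp605 (r = 0.959), and Sgms2 itself was the most like Glt1d1 (r = 0.982). Tifa was followed most closely by Fam110c (r = 0.973) and the cytokine gene Lif (r = 0.966), though Lif was under background in all KO arrays and 1 WT array. Tmem116 was followed by Dusp5 (r = 0.979) and Spry2 (r = 0.964), which encode feedback inhibitors of the MAP kinase pathway. Like Tmem116, both had their highest mean in WT with DSS, 14.93 for Dusp5 and 10.77 for Spry2. Their means in the other groups lay between 12.77 and 13.12 and between 9.16 and 9.36. A link between these genes was not tested. The closest were Tcta (r = 0.969) for Fah, Wdr82 (r = 0.984) for Dctd and 4930430F08Rik (r = 0.957) for Mtmr7.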

How the data were processed

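Per the submitters' processing notes the authors made the deposited log2 signals of the 8 arrays with Affymetrix Expression Console. No source used here gives the normalization, the background correction or the build. Of 28846 rows, 6640 were control rows and 19572 had 1 symbol in the platform annotation. Where rows shared a symbol, that with the greatest mean stood for the gene. Genes in the lowest 33.3% by mean, under 5.15, were not tested. With the values as deposited, limma 3.58.1 (R 4.3.3) estimated 4 group means from all arrays at once (4 residual degrees of freedom, prior 7.27). Tests were two-sided, Benjamini-Hochberg adjustment ran over 13003 genes, and passing means an adjusted p under 0.05. The p-values rest on the spread between 2 arrays a group, and that number limits the precision. An exact permutation test of 2 arrays against 2 cannot go below p = 0.333 and is not given. The scripts were tested on simulated data.

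The members and lists were chosen with earlier results of these data known. The text names the 8 members, Sgms2, Sgms1 and Samd8. It also names genes passing in both treatments. Of non-members passing only with DSS or only without, it names the 3 with the largest difference, judged by the treatment with the smaller value. Up to 4 passing neighbours per member and up to 2 genes most correlated with each member are named. So are up to 3 passing genes per pathway list, with the members' direct partners. Zfp951 was named after its value was seen. Gene order came from GRCm38.p6, to which all 13003 tested genes matched. The NF-kB-like motif is 3 G, any 2 letters, 3 T and 2 C. Deviations of same-numbered arrays from their group means correlated between -0.246 and 0.276 over 6 pairs of groups, so the numbers were not taken to pair the samples. The lists of T cells, B and plasma cells, endothelium, macrophages, and neurons and glia averaged 5.16 to 6.68, 5.76 to 7.11, 6.19 to 8.51, 5.50 to 7.97 and 5.20 to 6.01 over the arrays. Alternatives were the filter, the scaling, the moderation, array weights, a replicate block, fewer arrays and marker list covariates.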

Additional observations from a re-analysis of the deposited data

Results flagged for a closer look

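For Tifa, the adaptor of ALPK1 and NF-kB signalling, both DSS arrays lay below both untreated arrays in the KO and above them in WT. Neither change passed in limma, at -0.53 ± 0.27 in the KO (adjusted p = 0.597) and 0.81 ± 0.27 in WT (adjusted p = 0.140). Their difference was -1.35 log2 units, and the difference was not tested. Tmem116 showed the same pattern with a difference of -2.64, which was not tested either. Its KO change was -0.37 ± 0.34 (adjusted p = 0.825) with both DSS arrays under background, so no fall is shown. Of all tested genes 4.27% separated in opposite directions in this way. Both members passed between genotypes with DSS and not without, so their choice may have favoured this pattern. Nothing is read from the share. The arrays with DSS, unlike the untreated ones, held Y-linked transcripts, and DSS and their presence cannot be told apart in these values. Groups of 2 arrays are too small to look for outlying arrays.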

How the results depend on the processing

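With the fibroblast list mean as a covariate the untreated genotype differences turned to 0.23 ± 0.41 for Dctd and 0.52 ± 0.59 for Tmem116. Several settings cannot change a difference of group means, and the 8 genes were chosen for it, so its sign elsewhere shows no stability. Genes passing between genotypes in both treatments numbered 8 with trend and robust moderation, 9 with only the 4 arrays of each comparison, 1 with either covariate and 9 without both arrays with pancreatic transcripts, against 5. For KO against WT averaged over treatment the count was 8 with the fibroblast covariate, 5 with the smooth muscle covariate and 185 without the pancreatic arrays, against 88. Untreated it was 26 after quantile normalization, 241 with array weights, 252 with only those 4 arrays, 1 with either covariate and 252 without the pancreatic arrays, against 51. With DSS it was 29 after quantile normalization, 70 with trend and robust moderation, 21 with array weights and 17 with the smooth muscle covariate, against 46. For DSS the fibroblast covariate left 8 genes averaged over genotype, 9 in WT and 4 in the KO, against 718, 525 and 121. With that covariate the SE of the averaged DSS change was wider for each member, at 0.53 against 0.16 for Hddc3. In WT 988 passed without the pancreatic arrays, and in the KO 77 with array medians set equal, 70 after quantile normalization and 14 with only those 4 arrays. Members passing for DSS averaged over genotype fell to 0 after quantile normalization and with either covariate, and in WT to 0 with the fibroblast covariate. The only such member was Tmem116, from whose call nothing is read. The averaged value of Tmem116 was then 0.90 after quantile normalization, 0.95 with the smooth muscle covariate and 2.11 with the fibroblast covariate, against 0.96. Passing neighbours numbered 4 with trend and robust moderation and with array weights, 0 with either covariate and 5 without the pancreatic arrays, against 2. The cause of these shifts was not tested.

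With each array left out in turn the counts ran from 3 to 38 for both treatments, 28 to 362 for the genotype averaged over treatment, 3 to 132 untreated and 24 to 215 with DSS. They ran from 396 to 1054 for DSS averaged over genotype, 215 to 716 in WT and 18 to 297 in the KO. Members passing for DSS ran from 0 to 1 averaged over genotype and stayed at 1 in WT and 0 in the KO, and passing neighbours ran from 0 to 12. The highest values came without replicate 2 of KO with DSS, and for untreated mice and for DSS in WT equally without replicate 1. Averaged DSS changes that turned sign with the fibroblast covariate were those of Hddc3 (0.15 ± 0.53), Dctd (1.86 ± 0.56) and Mtmr7 (1.496 ± 0.80), none of which passed. Without the pancreatic arrays that of Mtmr7 also turned, to 0.23. With each array left out the averaged DSS change ran from -0.46 to 0.16 for Mtmr7, from -0.013 to 0.29 for Tifa and from -0.38 to 0.026 for Zfp605. With the replicate number as a block, 6 genes passed in both treatments and 94 averaged over treatment, and the block changed no call of a member's DSS change. Genes under background, such as Glt1d1 in the KO, have only a bound.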
